A study of Mus musculus with 8 samples.

Results

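The renin-angiotensin system was followed through 8 genes in RNA-seq libraries of mouse hearts. The genes encode the angiotensin receptors Agtr1a, Agtr1b, Agtr2 and Mas1, the precursor Agt, the converting enzyme Ace, and the receptor-associated proteins Agtrap and Atp6ap2. They were chosen by name, with earlier results of these data known. Each was found by its Entrez number among the 23282 genes of the deposited count table. All mice were males of the FVB/N inbred strain aged 4 months. One group carried the AE3-null genotype (4 libraries) and the other was wild type (4 libraries). AE3, the product of Slc4a3, is a chloride/bicarbonate exchanger of cardiac muscle. The sources used here do not describe the null allele, nor which parts of the heart were taken.

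In this system the protease renin releases angiotensin I from angiotensinogen, and angiotensin-converting enzyme trims it to angiotensin II. Angiotensin II acts on the type 1 (AT1) receptor, which couples mainly to Gq proteins, constricts vessels and promotes growth of heart muscle, and on the type 2 (AT2) receptor, which generally opposes AT1. A shorter peptide, angiotensin-(1-7), acts on the Mas receptor and also opposes AT1. Renin comes mainly from the kidney and angiotensinogen mainly from the liver, so the heart receives much of both from the blood. Mice, unlike humans, have a pair of AT1 receptor genes, Agtr1a and Agtr1b.

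The coding sequences of the AT1 pair bear on whether reads can be assigned to one gene or the other. In the GENCODE M21 transcripts (GRCm38), Agtr1a lies on chromosome 13 and Agtr1b on chromosome 3. Their open reading frames have the same length, 1080 bases, and differ at 99 positions (90.8% identity). The 90-base stretch with the most differences, 20 in all, spans coding bases 972 to 1061 near the receptor's carboxyl terminus and is shown first, on the coding strand, with differing bases in capitals.
Agtr1a: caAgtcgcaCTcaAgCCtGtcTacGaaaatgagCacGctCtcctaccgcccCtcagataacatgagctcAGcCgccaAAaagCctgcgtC
Agtr1b: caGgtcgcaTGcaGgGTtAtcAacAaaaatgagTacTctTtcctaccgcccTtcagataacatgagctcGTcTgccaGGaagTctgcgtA
The longest stretch that both genes share without a difference is 66 bases long, from coding base 75 to 140, and is shown as the sequence in which a short read has no base to tell the genes apart.
Agtr1a and Agtr1b: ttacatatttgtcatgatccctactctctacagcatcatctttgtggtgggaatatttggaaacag
Of the 2150 windows of 50 bases in the Agtr1a transcript, 33 (1.53%) also occur in the Agtr1b transcript. The read length is not given in the sources used here, and 50 bases served as an example.

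The libraries held 9133628 to 27078351 counts each. As a check of the genotype, Slc4a3 had 31.5 to 34.6 CPM (read counts scaled to a common library size and composition) in the 4 AE3-null libraries, against 378 to 389 CPM in the 4 wild-type libraries. The genotypes were compared over 14136 genes with edgeR's quasi-likelihood test, and a gene with a Benjamini-Hochberg adjusted p under 0.05 is called. Wild-type replicate 3 stood apart: without it 1727 genes were called in place of 915, whereas leaving out any other library gave 407 to 662. The study's design text gives 4 mice of each genotype, and the replicate spread here is that between the 4 libraries of a genotype.

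Of the 8 members 6 had enough counts to be tested. Agtr1a rose in AE3-null hearts and the other 5 tested members were not called. The 1 call among 6 tested members stands beside 6.47% of all tested genes called, 3.16% higher and 3.31% lower. In 2 members, Agtr1a and Agt, all AE3-null libraries lay above all wild-type libraries. Such separation, in either direction, was found in 12.2% of all tested genes. The median log2 fold change over the 6 members was 0.15, and over all tested genes it was -0.0018.

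**Figure D1:**
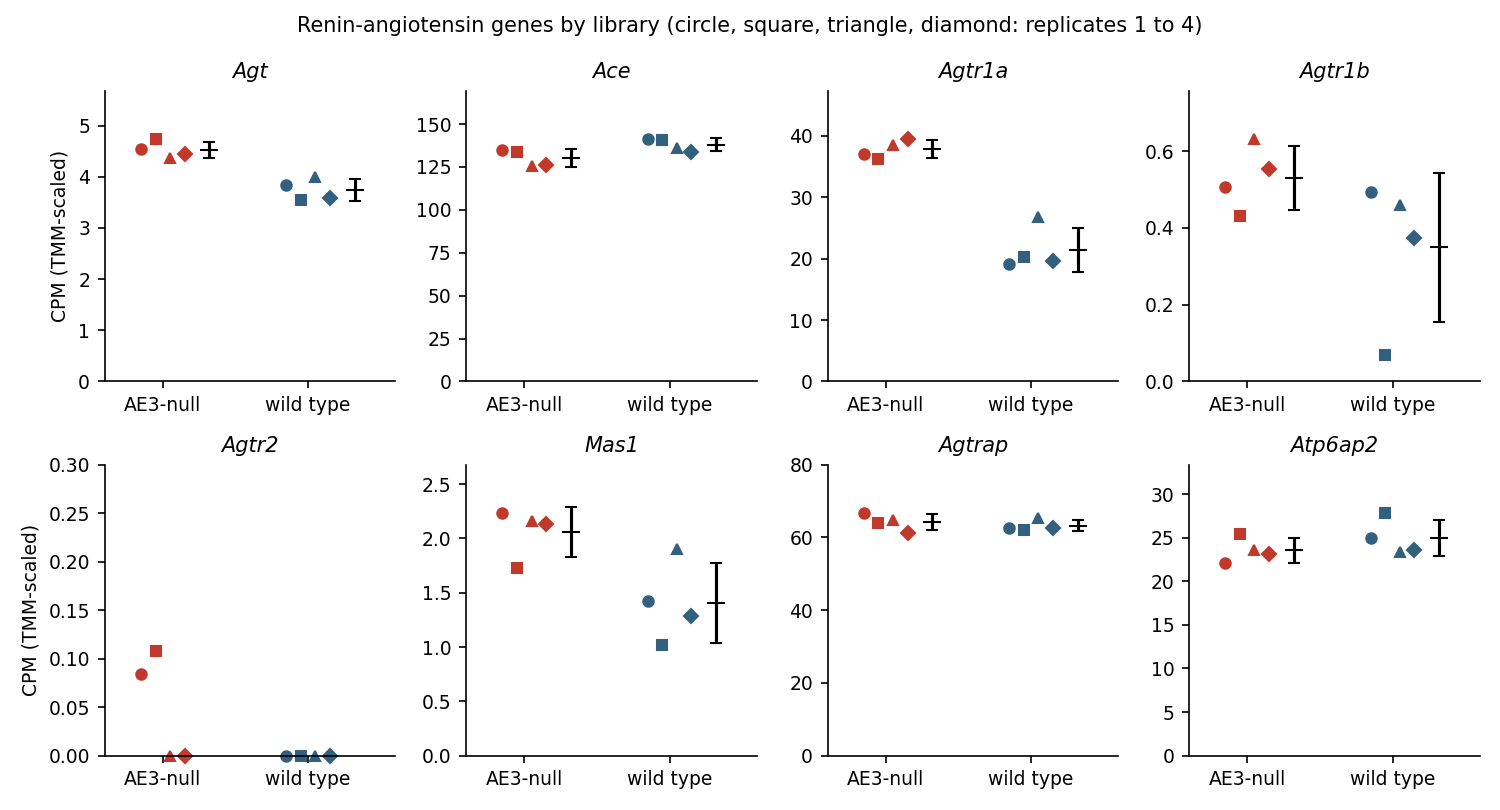
Expression of the 8 renin-angiotensin genes in each library (y axis, CPM; AE3-null libraries left and red, wild-type libraries right and blue). Black bars give the mean and SD over 4 libraries, omitted for Agtr2, which had 3 counts in all. The 4 AE3-null libraries of Agtr1a sit between 36.2 and 39.5 CPM, above all wild-type libraries, which sit between 19.2 and 26.8 CPM.

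Agt encodes angiotensinogen, the only known precursor of the angiotensins. Its level was 4.55, 4.74, 4.37 and 4.46 CPM in AE3-null replicates 1 to 4, against 3.83, 3.54, 4.00 and 3.58 CPM in wild-type replicates 1 to 4. The genotypes did not overlap, but each value rests on few counts, 44 to 121 in AE3-null libraries and 52 to 67 in wild-type libraries. The log2 fold change was 0.27 (SE 0.115), and Agt was not called (edgeR adjusted p 0.188). With other settings or single libraries left out the adjusted p ranged from 0.132 to 0.396.

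Renin itself was close to undetectable in the heart libraries. Ren1 and Ren2, the mouse renin genes, which are close copies of each other and can share reads, each had 0 counts in the AE3-null libraries together and 1 count in the wild-type libraries together. Chymases, the mast cell proteases that can also form angiotensin II, were scarce as well. Mcpt4 averaged 0.606 ± 0.115 CPM in AE3-null hearts and 0.797 ± 0.270 CPM in wild-type hearts (SD, n = 4 each; log2 -0.42, edgeR adjusted p 0.476), and its log2 fold change moved to -0.19 without wild-type replicate 4. Cma1 had 22 counts over the AE3-null libraries and 34 over the wild-type libraries. Ctsg, cathepsin G, had none in any library.

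Ace, the converting enzyme carried mainly by endothelial cells, was the most abundant member. It had 135, 134, 126 and 126 CPM in AE3-null replicates 1 to 4, against 141, 141, 136 and 134 CPM in wild-type replicates 1 to 4. The ranges overlapped narrowly, with the highest AE3-null library at 135 CPM and the lowest wild-type library at 134 CPM. The log2 fold change of -0.08 (SE 0.039) was not called (edgeR adjusted p 0.230), and its approximate 95% interval in folds was 0.896 to 0.995. Over all 14136 tested genes, 3.31% were called lower and 6992 had positive log2 fold changes. Markers of endothelial cells moved the same way as Ace: their 9 genes all had negative log2 fold changes, with 4 called lower. Their summed level was 1360 to 1444 CPM in AE3-null libraries and 1569 to 1722 CPM in wild-type libraries, and their part in the value of Ace was not tested. In bulk heart RNA, fewer cells of a type and less RNA per cell cannot be told apart.

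Mme, neprilysin, an enzyme that forms angiotensin-(1-7), differed by log2 0.13 (edgeR adjusted p 0.329). Its value was lowest, 0.08, when AE3-null replicate 2 was left out and highest, 0.19, when wild-type replicate 3 was.

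Agtr1a encodes the main AT1 receptor of most mouse tissues. It had 878, 336, 730 and 1072 counts in AE3-null replicates 1 to 4, or 37.0, 36.2, 38.4 and 39.5 CPM. Wild-type replicates 1 to 4 had 310, 297, 408 and 368 counts, or 19.2, 20.2, 26.8 and 19.7 CPM. All 4 AE3-null libraries were above all 4 wild-type libraries, and the wild-type library nearest to them was replicate 3.

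The fitted change of Agtr1a was 1.77-fold (approximate 95% interval 1.57 to 1.995; log2 0.82, SE 0.089, edgeR adjusted p 0.000193). By p-value it ranked 38 among the 14136 tested genes. By size, 26 genes called higher, Agtr1a included, changed at least as much. Leaving out wild-type replicate 3 gave the largest value, log2 0.95, and leaving out wild-type replicate 1 the smallest, 0.77. Agtr1a was called in each of 17 alternative analyses, with adjusted p-values of 2.22e-14 by DESeq2 to 0.0017 without AE3-null replicate 3. In the GENCODE annotation Agtr1a has a sense-intronic transcript model, Gm48161, on the same strand, whose reads could be counted with it.

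**Figure D2:**
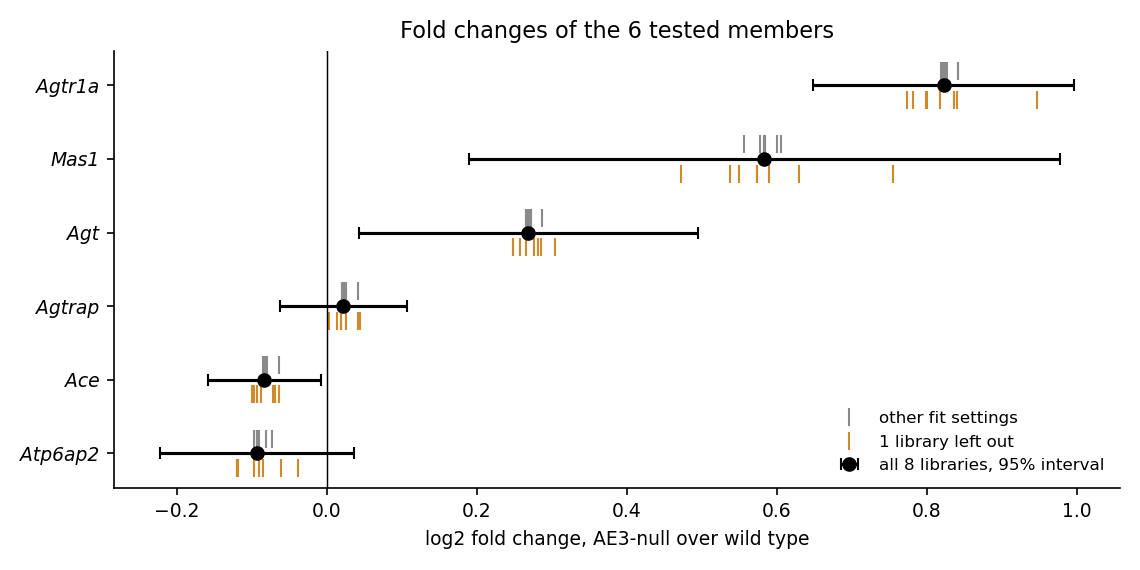
Log2 fold changes (x axis, AE3-null over wild type) of the 6 tested members, with approximate 95% intervals from the fit on all 8 libraries. Short marks give the same value with other scalings, filters, tools, a replicate block or the summed AT1 counts (grey) and with each library left out (orange). Agtr1a lies between 0.77 and 0.95 in all of them, and Agtrap stays between 0.0036 and 0.04.

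Agtr1b, the second AT1 gene, known in rodents chiefly from the adrenal and pituitary glands, had few counts. It had 12, 4, 12 and 15 counts in AE3-null replicates 1 to 4 (0.505, 0.431, 0.632 and 0.552 CPM), against 8, 1, 7 and 7 counts in wild-type replicates 1 to 4 (0.494, 0.0682, 0.459 and 0.374 CPM). The ranges overlapped, and the exact Poisson 95% interval of the lowest wild-type library reached 0.380 CPM by counting error alone. The gene fell under the filter on low counts; without the filter it differed by log2 0.61 (SE 0.410, edgeR adjusted p 0.50 over 18959 genes). Some of these few reads could belong to Agtr1a, given the shared stretches shown above.

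Agtr1a held nearly all counted AT1 receptor reads in both genotypes. Its share of Agtr1a plus Agtr1b counts was 98.7%, 98.8%, 98.4% and 98.6% in AE3-null replicates 1 to 4, against 97.5%, 99.7%, 98.3% and 98.1% in wild-type replicates 1 to 4. The Clopper-Pearson 95% intervals, which cover counting error only, ran from 97.0% to 99.7% over the AE3-null libraries and from 95.1% to 99.99% over the wild-type libraries. The mean share was 98.6% ± 0.181 in AE3-null hearts and 98.4% ± 0.916 in wild-type hearts (SD, n = 4 each), and the two-sided exact permutation p over 70 splits was 0.657, where the smallest possible is 0.0286. Without wild-type replicate 2, which had 1 Agtr1b count, the difference was 0.643 percentage points (exact permutation p 0.0286), and without wild-type replicate 1 it was -0.0842 (exact permutation p 0.914). If the Agtr1b counts are Agtr1a reads from shared stretches, sequence alone sets the share in both genotypes. The permutation tests cannot tell this apart from low Agtr1b expression. With the counts of both genes summed, the AT1 pair rose by log2 0.82 (edgeR adjusted p 0.000207).

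Agtr2 encodes the AT2 receptor, which is abundant in the fetus and low in most adult tissues. It had 2 counts in AE3-null replicate 1 and 1 in replicate 2, and none in AE3-null replicates 3 and 4 or in any wild-type library. Taken as a floor of 3 counts, which is lower than the upper end of the two-sided Poisson interval given for Agtr1b, a count of 0 allows a level of up to 0.158 and 0.111 CPM in those AE3-null libraries and of up to 0.160 to 0.205 CPM in the wild-type libraries. No difference in Agtr2 was detectable at this depth.

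Mas1 encodes the receptor of angiotensin-(1-7). It had 2.23, 1.72, 2.16 and 2.14 CPM in AE3-null replicates 1 to 4, against 1.42, 1.02, 1.90 and 1.28 CPM in wild-type replicates 1 to 4. Wild-type replicate 3 lay above the lowest AE3-null library, replicate 2, and the other libraries were separated by genotype. The log2 fold change of 0.58 (SE 0.201) was not called (edgeR adjusted p 0.0962). Without wild-type replicate 3 it was 0.76 and called (edgeR adjusted p 0.0232), and over all 16 alternative analyses it ranged from 0.47 to 0.76. The fit without wild-type replicate 3 called 1727 genes in place of 915, and it leaves out the wild-type library highest in Mas1. Mas1 rests on 168 counts over the AE3-null libraries and 91 over the wild-type libraries.

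Mas1 overlaps Airn, a long noncoding RNA transcribed from the other strand, and the strand setting of the counting is not given. Airn was more abundant, with 9.77 ± 0.349 CPM in AE3-null hearts and 10.9 ± 1.13 CPM in wild-type hearts (SD, n = 4 each). Its log2 fold change was -0.16 (edgeR adjusted p 0.313), opposite in sign to that of Mas1. The part of Airn reads in the Mas1 value was not tested. Ace likewise has an antisense transcript model, Gm11651, in the annotation.

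Agtrap and Atp6ap2 encode proteins that bind receptors of the system. Agtrap (ATRAP) binds the tail of the AT1 receptor and promotes its internalization. It had 66.7, 64.0, 64.7 and 61.4 CPM in AE3-null replicates 1 to 4, against 62.7, 62.0, 65.5 and 62.7 CPM in wild-type replicates 1 to 4. The genotypes overlapped throughout. Agtrap was not called (log2 0.02, SE 0.043, edgeR adjusted p 0.832), with an approximate 95% interval of 0.957 to 1.08 in folds. Counts of Agtr1a per count of Agtrap were therefore 0.555, 0.566, 0.594 and 0.643 in AE3-null replicates 1 to 4, against 0.305, 0.327, 0.409 and 0.314 in wild-type replicates 1 to 4. This ratio needs no library scaling, and its genotypes did not overlap.

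Atp6ap2, the (pro)renin receptor, is also an accessory subunit of the vacuolar proton pump (V-ATPase). It had 22.1, 25.4, 23.6 and 23.1 CPM in AE3-null replicates 1 to 4, against 25, 27.8, 23.4 and 23.6 CPM in wild-type replicates 1 to 4. The ranges overlapped. The log2 fold change of -0.09 (SE 0.066) was not called (edgeR adjusted p 0.458) and was -0.04 without wild-type replicate 2.

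Divided by transcript length, the levels of the members ran in a different order in the 2 genotypes. The lengths, 1891 to 4906 bases, are those of the longest GENCODE transcript with a curated RefSeq match, since the annotation used for counting is not given. In AE3-null hearts Ace was highest, at 26.6 ± 1.02 CPM per kilobase. Agtr1a (17.2 ± 0.667) and Agtrap (16.1 ± 0.550) followed, and their library ranges overlapped (16.5 to 17.9 and 15.3 to 16.7). Atp6ap2 (10.1 ± 0.604), Agt (2.39 ± 0.0841), Mas1 (0.859 ± 0.0956), Agtr1b (0.247 ± 0.0392) and Agtr2 came next, with no overlap between neighbours down to Agtr1b (SD, n = 4 throughout).

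In wild-type hearts Ace (28.1 ± 0.775 CPM per kilobase) was followed by Agtrap (15.8 ± 0.387), which stood clear of the rest. Atp6ap2 (10.8 ± 0.869) and Agtr1a (9.76 ± 1.62) then overlapped, with libraries at 10.1 to 12 and 8.71 to 12.2. Below them came Agt (1.98 ± 0.114), Mas1 (0.586 ± 0.154) and Agtr1b (0.163 ± 0.0903), with Agtr2 at 0 counts (SD, n = 4 throughout). Within single libraries Agtr1a was above Agtrap in 4 of 4 AE3-null libraries, by margins from 16.8 against 16.7 CPM per kilobase in replicate 1 to 17.9 against 15.4 in replicate 4, and in 0 of 4 wild-type libraries. It was above Atp6ap2 in 4 of 4 AE3-null libraries and in 1 of 4 wild-type libraries, replicate 3. Margins this narrow depend on the transcript lengths assumed.

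The 5 genes whose log2 CPM over the 8 libraries most resembled that of Agtr1a, among 10547 named protein-coding genes of at least 5 CPM, were Herc3, Slc36a2, Ppif, Slc25a42 and Camk1d. Their Pearson r with Agtr1a was 0.991, 0.991, 0.989, 0.988 and 0.982. These values describe 8 libraries that fall into 2 genotypes, so any gene with a clean rise scores high, and a profile shared with Agtr1a, wild-type replicate 3 included, follows from how the genes were picked. All 5 were called higher, by log2 0.55 (Herc3, a HECT-type ubiquitin ligase), 0.43 (Slc36a2, a proton-coupled amino acid transporter), 0.24 (Ppif, mitochondrial cyclophilin D), 0.25 (Slc25a42, a mitochondrial coenzyme A carrier) and 0.60 (Camk1d, a calcium/calmodulin-dependent kinase). Herc3, for example, had 54, 56.2, 55.7 and 54.4 CPM in AE3-null replicates 1 to 4, against 35.7, 36.9, 43.8 and 34.7 CPM in wild-type replicates 1 to 4. Among the AE3-null libraries alone the likeness did not hold for Herc3, which was highest in replicate 2, where Agtr1a was lowest, nor for Ppif, which was highest in replicate 1, whereas Agtr1a was highest in replicate 4.

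**Figure D3:**
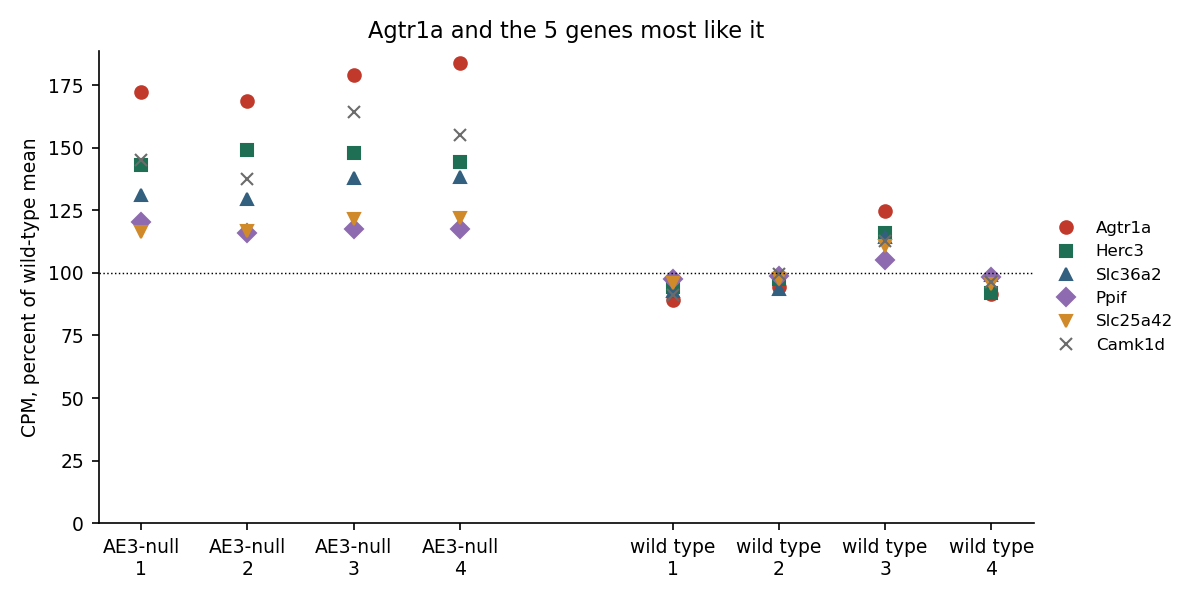
Level of Agtr1a and of the 5 genes most like it in each library (y axis, CPM as percent of the gene's wild-type mean; the dotted line marks 100). All 6 genes lie above 100 in the 4 AE3-null libraries, and wild-type replicate 3 is the highest wild-type library for each, as their selection by likeness to Agtr1a favours.

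Around the 8 members, 7 lists of related genes, 130 genes in all, were compared in the same fit. Of 108 tested, 5 rose and 6 fell, 10.2% against 6.47% of all tested genes, and the median log2 fold change was -0.05. The rises were larger: Nr3c2, Prkcb, Ptk2b, Grk3 and Nppa rose by log2 0.42 to 0.65, whereas 5 of the 6 falls lay between -0.31 and -0.12, the exception being Acta1 at -1.45. The lists were drawn up from general knowledge with earlier results of these data known.

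The mineralocorticoid list holds the receptors and enzymes through which aldosterone, the hormone released by angiotensin II, acts. Of 4 tested genes 1 rose and 1 fell (median log2 -0.07). Nr3c2, the mineralocorticoid receptor, had 32.7, 35.6, 32.4 and 34.3 CPM in AE3-null replicates 1 to 4, against 22.4, 19.2, 26.8 and 17.5 CPM in wild-type replicates 1 to 4. No libraries overlapped, and wild-type replicate 3 was again the highest of its genotype (log2 0.65, SE 0.111, edgeR adjusted p 0.00835). Its value lay between 0.56 and 0.78 with single libraries left out, and the largest adjusted p was 0.0359.

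Sgk1, a kinase induced by mineralocorticoid and glucocorticoid receptors, fell by 0.25 on the log2 scale (SE 0.070, edgeR adjusted p 0.0484). Its call was lost in 8 of 17 alternative analyses, other scalings and single libraries left out among them, where the adjusted p reached 0.150. Hsd11b2, the enzyme that keeps cortisol-type hormones off the mineralocorticoid receptor, had 12 counts over the AE3-null libraries and 16 over the wild-type libraries. Cyp11b2, aldosterone synthase, had 0 counts over the AE3-null libraries and 1 over the wild-type libraries.

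Among 34 genes of AT1 signal transduction 2 rose and 1 fell (median log2 -0.02). Prkcb, protein kinase C beta, rose to 8.32 ± 1.11 CPM in AE3-null hearts, against 5.84 ± 0.667 CPM in wild-type hearts (SD, n = 4 each; log2 0.54, SE 0.112, edgeR adjusted p 0.00895). The ranges overlapped slightly, at 6.68 to 9.06 and 5.32 to 6.82 CPM. Ptk2b, the calcium-activated tyrosine kinase PYK2, rose to 11.9 ± 1.29 CPM in AE3-null hearts, against 8.56 ± 0.848 CPM in wild-type hearts, with no overlap (log2 0.50, SE 0.097, edgeR adjusted p 0.00603). Stat3, a transcription factor downstream of JAK2, fell by 0.17 (SE 0.044, edgeR adjusted p 0.0284), and its call was lost in 6 of 17 alternative analyses, each with 1 library left out. The Gq-type subunits that AT1 couples to, Gnaq and Gna11, were not called, at log2 -0.06 and -0.10 (edgeR adjusted p 0.552 and 0.143). Cybb, the NADPH oxidase subunit of phagocytes, stood at log2 0.34 without a call (edgeR adjusted p 0.0841) and was called by DESeq2 (adjusted p 0.0300).

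Of 14 receptor regulators and receptor-binding proteins 1 rose and none fell (median log2 -0.04). Grk3, one of the kinases that phosphorylate activated receptors and so start their desensitization, had 43.8, 47.4, 48.9 and 43.9 CPM in AE3-null replicates 1 to 4, against 35.5, 36.6, 28.5 and 35.4 CPM in wild-type replicates 1 to 4. The genotypes did not overlap, and wild-type replicate 3 was the lowest library (log2 0.43, SE 0.071, edgeR adjusted p 0.00230; 0.36 without that library). Rgs4, an inhibitor of Gq signalling, stood at log2 -0.28 without a call (edgeR adjusted p 0.0660) and was called in 4 of 17 alternative analyses, among them DESeq2 and the fit without wild-type replicate 3.

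Of 14 tested angiotensin-processing enzymes, other than Ace, none rose and 1 fell (median log2 0.0030). Ctsd, the lysosomal protease cathepsin D, fell by 0.12 (SE 0.033, edgeR adjusted p 0.0366), but the call was lost in 10 of 17 alternative analyses, scaling by total counts among them, and the adjusted p reached 0.121. In the kallikrein-kinin list, whose peptide bradykinin is degraded by Ace, 3 of 9 genes could be tested and 1 fell (median log2 -0.30). Cpm, a membrane carboxypeptidase that trims kinins, fell to 11.4 ± 0.713 CPM in AE3-null hearts, against 14.2 ± 0.780 CPM in wild-type hearts (SD, n = 4 each; log2 -0.30, SE 0.076, edgeR adjusted p 0.0270). No libraries overlapped, but the call was lost without wild-type replicate 1 or AE3-null replicate 2, 3 or 4 (adjusted p up to 0.0868). Bdkrb2, the main bradykinin receptor, had 0.655 ± 0.131 CPM in AE3-null hearts and 1.06 ± 0.378 CPM in wild-type hearts (SD, n = 4 each; log2 -0.69, edgeR adjusted p 0.193).

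The V-ATPase list covers the proton pump that Atp6ap2 helps to assemble. Of 18 tested genes none rose and 1 fell (median log2 -0.01). Atp6v1b2, the B2 subunit of the pump's catalytic head, had 86.4, 93.2, 92.7 and 79.7 CPM in AE3-null replicates 1 to 4, against 110.0, 111, 99.7 and 114 CPM in wild-type replicates 1 to 4. No libraries overlapped (log2 -0.31, SE 0.054, edgeR adjusted p 0.00323), and the largest adjusted p over the alternative analyses was 0.0160.

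Of 21 tested genes that angiotensin II is known to induce in heart tissue, 1 rose, 1 fell and 19 were not called. Of the 21, 18 had negative log2 fold changes (median -0.16). Over all 14136 tested genes 6992 had positive values (median -0.0018), and 6.47% were called. The list was not tested as a set. Among those not called was Myh7, at 17391 CPM in AE3-null hearts and 17370 CPM in wild-type hearts. Whether reads of its close relative Myh6 (48124 and 47853 CPM) were counted for Myh7 was not tested. Acta1, skeletal actin, had 251, 235, 272 and 283 CPM in AE3-null replicates 1 to 4, against 508, 759, 619 and 963 CPM in wild-type replicates 1 to 4. No libraries overlapped (log2 -1.45, SE 0.209, edgeR adjusted p 0.0139), and the adjusted p was 0.0519 without AE3-null replicate 4. Nppa, the atrial natriuretic peptide gene and an atrial marker as well, rose by log2 0.42 (SE 0.077, edgeR adjusted p 0.0168). Leaving out wild-type replicate 4 or AE3-null replicate 3 ended the call (adjusted p up to 0.0644).

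**Figure D4:**
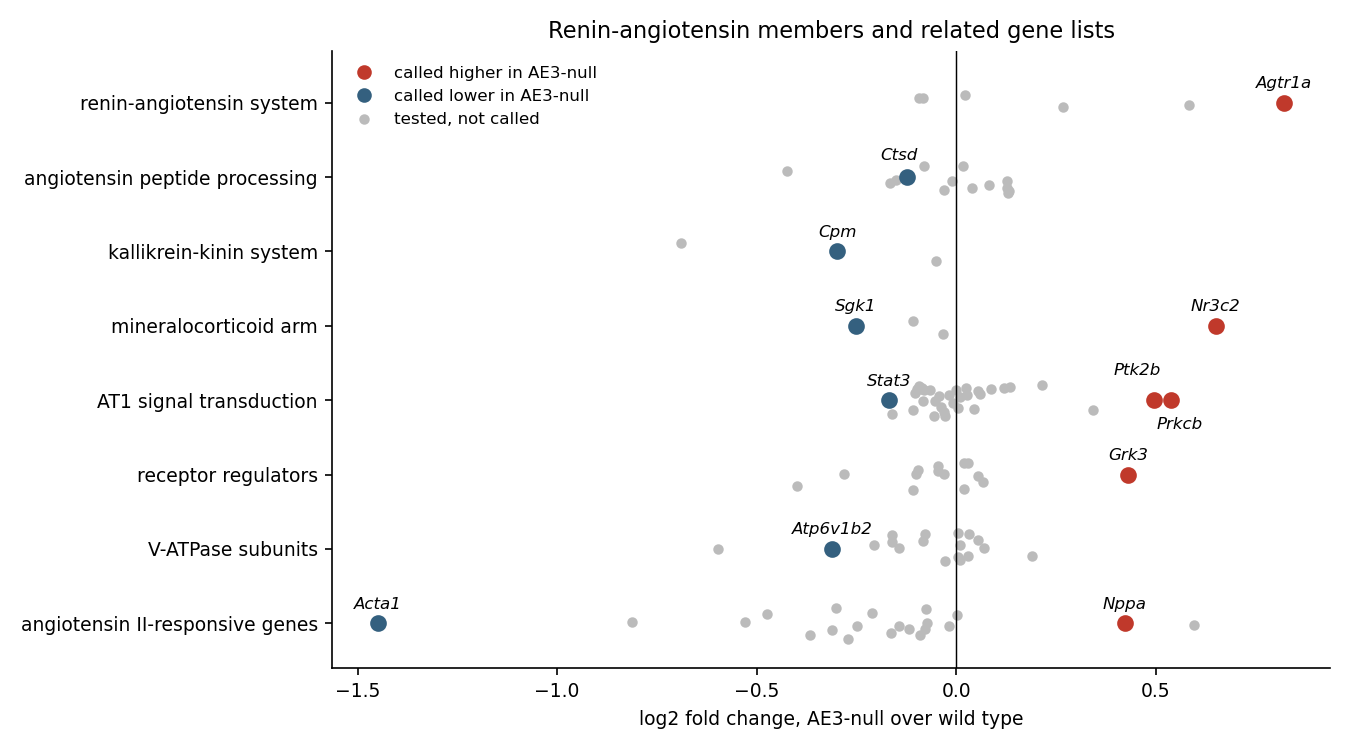
Log2 fold changes (x axis, AE3-null over wild type) of the tested members and of the 7 related lists (rows, each point a gene; vertical scatter of grey points is for legibility). Named points were called, 6 higher (red) and 6 lower (blue). Agtr1a lies furthest to the right at 0.82 and Acta1 furthest to the left at -1.45.

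Markers of the cell types that a heart holds were set beside the change of Agtr1a. Over all tested genes, 3.16% were called higher and 3.31% lower. Of 9 atrial cardiomyocyte markers 8 rose and 1 was not called. The summed level of the atrial markers was 4116 to 4735 CPM in AE3-null libraries and 3103 to 3653 CPM in wild-type libraries. Nppa held most of it, with means of 2783 CPM in AE3-null hearts and 2077 CPM in wild-type hearts. The smooth muscle list, with Myh11 as its 1 called gene of 5, had 346 to 457 CPM in AE3-null libraries and 320 to 396 CPM in wild-type libraries. The pericyte list, with Abcc9 (also a cardiomyocyte channel subunit) as its 1 called gene of 8, had 1217 to 1281 CPM in AE3-null libraries and 1115 to 1219 CPM in wild-type libraries. Abcc9 held most of that sum, and the other 7 genes summed to 519 to 541 CPM in AE3-null libraries and 487 to 557 CPM in wild-type libraries, which overlapped. In the fibroblast list 3 of 11 fell and none rose. Its sums were 4219 to 4339 CPM in AE3-null libraries and 4110 to 4561 CPM in wild-type libraries. Gsn held most of them, with means of 2254 CPM in AE3-null hearts and 2275 CPM in wild-type hearts.

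The Schwann cell and neuron list, with 1 riser among 4 tested of 6, had 17.3 to 19.6 CPM in AE3-null libraries and 12.8 to 15.1 CPM in wild-type libraries. All 3 red blood cell markers had negative log2 fold changes without a call (sums of 1672 to 2320 CPM in AE3-null libraries and 2412 to 3839 CPM in wild-type libraries), and none of 9 macrophage markers was called. None of 5 epicardial and 5 tested adipocyte markers was called either. Of 6 genes listed for ventricular cardiomyocytes 1, Tnnt2, rose, and atrial cardiomyocytes express it too. The mast cell list summed to 1.18 to 2.14 CPM in AE3-null libraries and 1.5 to 3.05 CPM in wild-type libraries, with Fcer1a at 0 counts in all AE3-null libraries. The part of these cell types in the result for Agtr1a was not tested. Kidney markers, which would accompany renin from stray renal tissue, were at 0 in the AE3-null libraries and at most 0.131 CPM in a wild-type library.

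**Figure D5:**
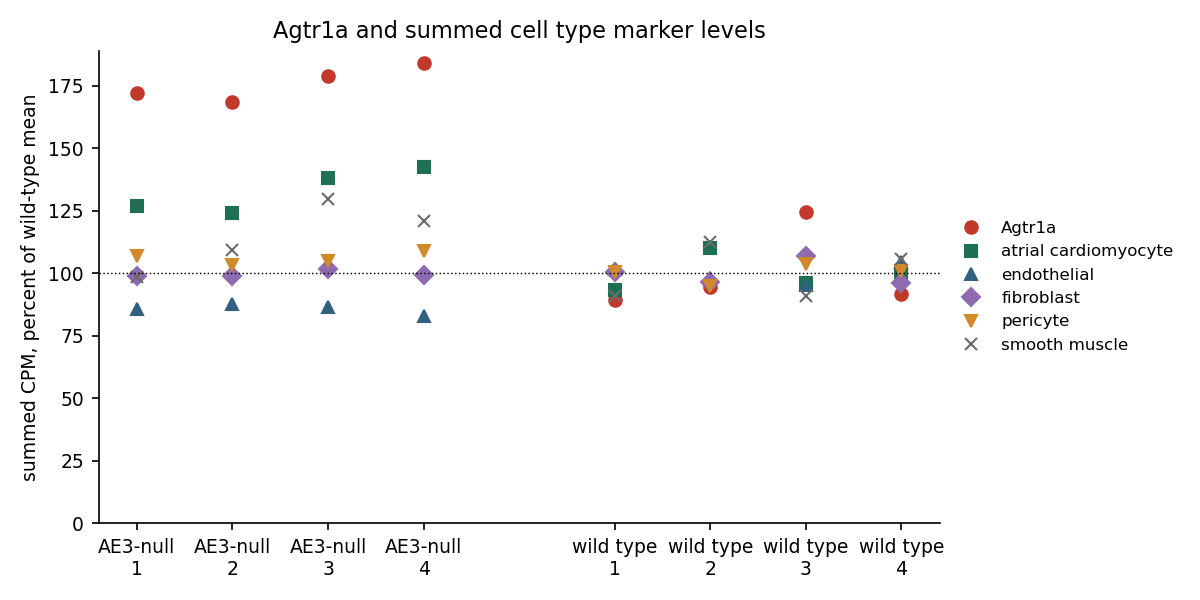
Level of Agtr1a and summed level of 5 cell type marker lists in each library (y axis, percent of the wild-type mean; the dotted line marks 100). In the AE3-null libraries Agtr1a lies at 169 to 184 and the atrial list, which Nppa dominates, at 124 to 143. The pericyte list, which Abcc9 dominates, lies there at 104 to 109 and the endothelial list at 82.7 to 87.9. Gsn dominates the fibroblast list.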

How the data were processed

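The authors deposited raw read counts per Entrez gene, 1 column per library and unscaled. Per the submitters' processing notes, CASAVA 1.8, bcl2fastq, TopHat, build mm9 and DESeq were used; the counting program, its strand setting and its annotation were not given in the sources used here. Symbols for 23185 of 23282 genes came from an NCBI RefSeq table of GRCm38.p6, whose coordinates were not used. Columns were matched to libraries by title. Genes were filtered with filterByExpr (minimum count 10), scaled by TMM and tested with edgeR's robust quasi-likelihood F test on all 8 libraries, without covariates, in edgeR 4.0.16 (R 4.3.3); limma 3.58.1 and DESeq2 1.42.0 served the alternatives. P-values were adjusted over all tested genes. Standard errors were derived from the F statistic, and approximate 95% intervals are 1.96 of them either side. CPM uses TMM-scaled library sizes. The total counts, 9133628 to 27078351, set the precision. On simulated counts of 14136 genes for AE3-null against wild type, the test recovered 30 of 50 genes given a 1.25-fold change. It recovered 35 of 50 at 1.5-fold, all 50 at 2-fold and all 49 at 3-fold, and 11 of 175 calls were false. The changed genes were drawn at random from all tested genes, so the rates are not those of low-count genes such as Agt or Mas1. A library that stands apart, as wild-type replicate 3 does, was not simulated. The members and lists were chosen with earlier results of these data known. Named genes are the members, up to 4 called genes per related list by p, the 5 genes most like Agtr1a (Pearson r of log2 of CPM plus 0.5) and Slc4a3; others, such as Ren1, Mme, Gnaq, Bdkrb2 and Rgs4, were chosen after their values were seen. Alternatives were RLE or no scaling factors, no or a stricter filter (minimum count 50), DESeq2, limma voom, no robust moderation, a replicate block and each library left out. Summing the AT1 counts and the pericyte sum without Abcc9 were chosen after the data were seen.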

Additional observations from a re-analysis of the deposited data

Results flagged for a closer look

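In 5 of 70 groups of 4 libraries checked, 1 library lay far from the other 3 (chance flags about 5% of independent groups). Ppif and Slc25a42 were among the genes checked because their profiles resemble that of Agtr1a, so their flags follow from that choice, and the 5 are not independent. All 5 were wild-type replicate 3. Agtr1a had 26.8 CPM there, with the next wild-type library at 20.2 CPM. Grk3 had 28.5 CPM, with the next at 35.4 CPM, and Stat3 had 229 CPM, with the next at 254 CPM. Ppif had 214 CPM, with the next at 200.1 CPM, and Slc25a42 had 106 CPM, with the next at 93.5 CPM. In each of these genes the library lay nearer to the AE3-null libraries than the other wild-type libraries did, except in Grk3, where it lay further away.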

How the results depend on the processing

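All 17 alternative analyses called Agtr1a, and none of the 32 genes followed through them reversed a call. Of 306 values for the 18 called genes 275 kept the call and 31 lost it. The 31 losses all fell on related genes: Ctsd, Sgk1, Stat3, Cpm, Nppa and Acta1. Slc4a3, the genotype check, and the genes picked for likeness to Agtr1a lost none, and they add to the kept values. Summing the AT1 counts again gave 915 calls and nearly repeats the main fit for other genes. Of 232 values for the 14 genes not called 226 stayed so and 6 gained a call. The number of members called was 1 in each, except 2 without wild-type replicate 3, when Mas1 joined. With single libraries left out, the genes called ranged from 407 to 1727 (main 915), the related genes called from 6, without AE3-null replicate 4, to 14, without wild-type replicate 3 (main 11; 7 without AE3-null replicate 3), and the difference in the Agtr1a share of AT1 counts from -0.0842 to 0.643 percentage points. Without composition factors (total counts only) the split of higher to lower calls was 528 to 361, against 447 to 468. The replicate numbers of the titles gave correlations of 0.012 to 0.307 between same-numbered libraries. The best-matching wild-type library had the same number for AE3-null replicates 1 and 3, but not for replicates 2 and 4. With no reference value for such correlations, they cannot settle whether the libraries were paired. A replicate block gave 1002 calls, 1 member called and 11 related genes called. As a log2 ratio with a pseudocount of 0.5 CPM, Agtr1a over Agtr1b differed by 0.50 (exact permutation p 0.0571). Depth limits Agtr1b, Agtr2, renin and the chymases, whose counts are too few for small changes to show.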
